A study of Mus musculus with 6 samples.

Results

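The enzymes that use glutathione and thioredoxin to handle electrophiles and peroxides were described in whole hearts of 8-week-old mice. They were chosen by name, as 58 gene symbols for glutathione transferases, glutathione synthesis, peroxidases, thioredoxins and targets of the transcription factor NRF2, and every probe set annotated with only 1 of these symbols was taken. This gave 105 of the 45101 probe sets, which stand for 55 of the 58 symbols and of 18193 genes in all. Prdx1, Prdx5 and Prdx6 had no such probe set. After a filter that kept probe sets above the 40th percentile of their array on at least 3 of the 6 arrays, 54 members were tested among 13634 genes, each by its brightest kept probe set. Ggt7 did not pass the filter, with log2 signals of 3.75 to 4.46. The family was taken up with its results on these arrays known, among them the large fall of Gstk1, so every difference and call below describes these 6 arrays and is not independent support for a change of the family.

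The study compared 3 DNMTs-Tg mice (replicates 1, 5 and 6) with 3 wild-type mice (replicates 1, 4 and 6) on Affymetrix GeneChip arrays, with 1 array per heart. DNMTs-Tg mice make DNMT3A2, an isoform of an enzyme that sets new DNA methylation, and its catalytically inactive cofactor DNMT3L ectopically in many somatic cells. Per the labels they came from a female with the Ddx4-cre transgene, on an FVB background, crossed to a male with the floxed construct. What promoter drives the transgenes and which strain the wild-type mice are is not stated in the labels. The study looked for genes silenced in the heart by the added methyltransferases. DNA methylation was not analysed here.

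Glutathione transferases join the tripeptide glutathione to reactive electrophiles such as lipid aldehydes. The cytosolic enzymes fall into classes named by Greek letters, the kappa enzyme lies in mitochondria and peroxisomes, and the microsomal enzymes sit in membranes. Glutathione peroxidases and peroxiredoxins reduce peroxides, while glutathione reductase and the thioredoxin reductases restore the reduced carriers with NADPH. NRF2, encoded by Nfe2l2 and held in check by KEAP1, switches on many of these genes under oxidative or electrophilic stress. The heart, with its dense mitochondria, depends on this network to clear the peroxides made by respiration.

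The arrays matched their genotype labels, since Dnmt3l had log2 signals of 12.19 to 12.38 in DNMTs-Tg and 5.17 to 5.48 in wild-type hearts. All 12 cardiomyocyte markers lay above the 40th percentile on all 6 arrays. Their differences lay below 0 for 9 and above 0 for 3, and 1 fell, Nkx2-5 (-0.59, limma, adjusted p = 0.0471). The labels call 5 mice female and wild-type replicate 6 male, whereas a Y-linked transcript was detected on 5 arrays and Xist on the remaining array, wild-type replicate 4. Array medians were 5.28 to 5.33 (log2). The first principal component, the main axis of variation over all genes tested, held 64.0% of the variance. On it DNMTs-Tg replicates 1, 5 and 6 lay at -52.96, -21.07 and -4.34, and wild-type arrays at 24.58 to 27.82. An order of replicates 1, 5 and 6 in distance from wild-type is thus that of the whole arrays. The array of DNMTs-Tg replicate 1 stood farthest from wild-type, and its mean over 11 macrophage markers was 1.41 (log2) above the wild-type mean, against -0.10 and -0.02 in replicates 5 and 6 and -0.08 to 0.11 in wild-type arrays. Of these markers 10 of 11 lay above 0 and 0 passed (limma, 1 at an unadjusted p under 0.05). Its mean over 10 fibroblast markers was 1.15, against 0.22 and 0.15 and a wild-type range of -0.19 to 0.26. Of the fibroblast markers 7 of 10 lay above 0 and 0 passed (limma, 2 at an unadjusted p under 0.05). The 3 below 0 were Tcf21 (-0.10), Ddr2 (-0.22) and Thy1 (-0.19). For 39 of the 54 members (72.2%) replicate 1 was the DNMTs-Tg array farthest from the wild-type mean, and for all genes tested this share was 56.5%. The neutrophil marker mean was 0.66 to 0.80 in DNMTs-Tg and -0.24 to 0.29 in wild-type hearts. Of 10 markers 6 were tested and 2 rose (limma, 3 at an unadjusted p under 0.05). The rises were S100a8 (1.86, adjusted p = 0.0221) and S100a9 (2.14, adjusted p = 0.0336). Csf3r, Elane, Camp and Ngp did not pass, at 0.43, 0.09, 0.13 and -0.21. The mean thus rests mostly on S100a8 and S100a9. The 3′ minus 5′ signal of Gapdh, a sign of RNA breakdown, was 0.53 to 0.75 in DNMTs-Tg and 0.40 to 0.50 in wild-type hearts. The same measure of Actb did not separate the genotypes. Its DNMTs-Tg values were 1.05 (replicate 1), 0.91 (replicate 5) and 1.40 (replicate 6), around a wild-type span of 1.09 to 1.25. The part of RNA breakdown in the differences was not tested. The number of arrays limits the precision of every value.

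In DNMTs-Tg hearts 7 members fell and 0 rose (limma, Benjamini-Hochberg adjusted p below 0.05 over all 13634 genes). Of all genes tested 3.15% fell and 2.24% rose, 5.39% in all. The 7 were 6 transferases, Gstk1, Gstt2, Gstm5, Gstm7, Gstm4 and Gstp1, and the thioredoxin gene Txn1, which made 13.0% of the members tested. At an unadjusted p under 0.05 there were 14 members lower and 6 higher, and 26% of all genes in either direction. The median log2 difference was -0.31 over the 21 transferases, -0.02 over the 33 other members and 0.0055 over all genes. Groups did not overlap for 18 members that lay lower and 9 that lay higher in DNMTs-Tg hearts, against 17.6% and 17.3% of all genes (34.9% in both directions). Among the 105 probe sets of the members 7 passed when all probe sets were tested without a filter, each that of a called gene, and 2.11% of all probe sets passed (1.31% lower). Without DNMTs-Tg replicate 1 the call covered 10 falls and 2 rises, without DNMTs-Tg replicate 6 it covered 8 and 3, and without DNMTs-Tg replicate 5, wild-type replicate 1 or wild-type replicate 6 it covered 2 falls and 0 rises. Without wild-type replicate 4, the array with Xist RNA, 3 members fell and 0 rose. The number of all genes called also moved widely between these fits, as given under the dependence on the processing. A change in the count of members from fit to fit is therefore not a result about the members. Gstm5 and Gstm7 passed whichever of the 6 arrays was left out.

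**Figure D1:**
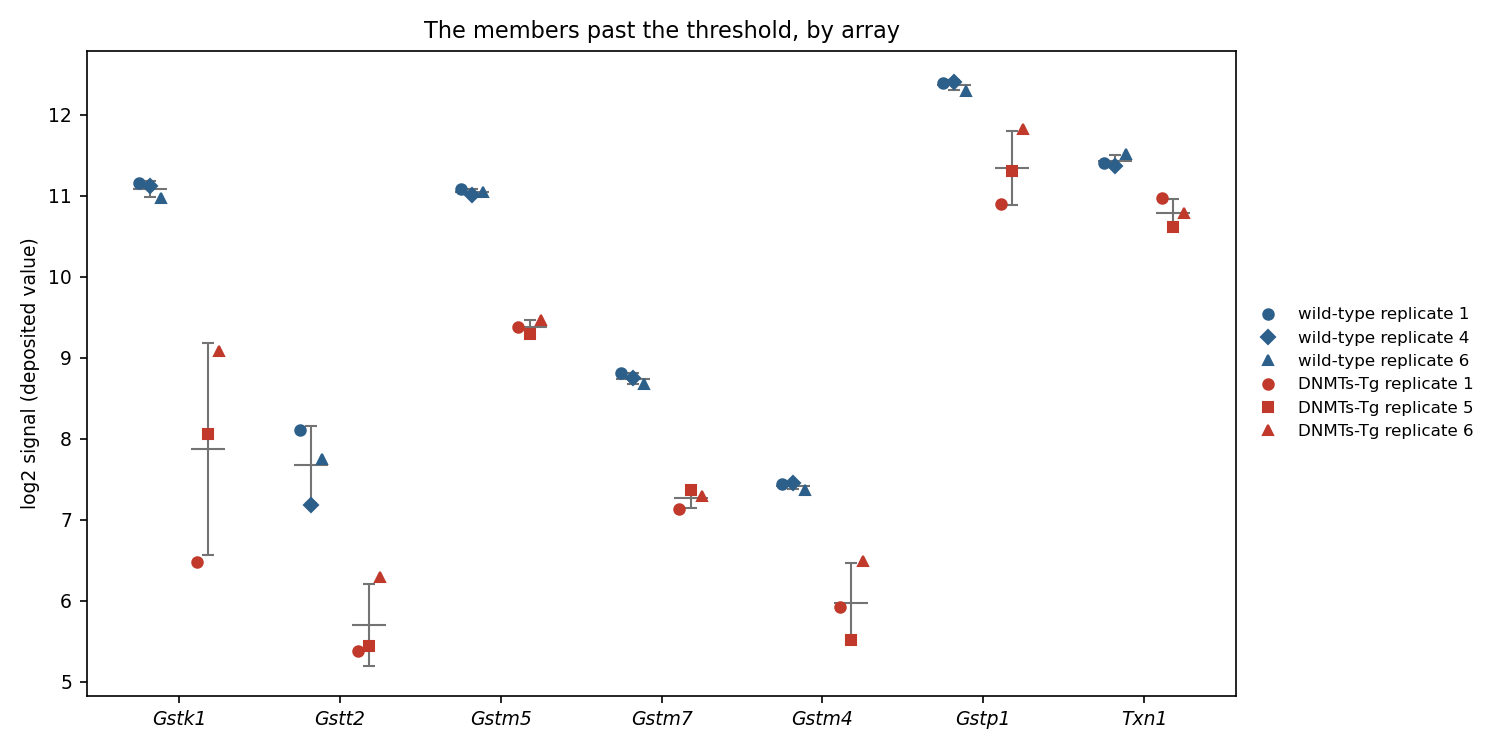
Log2 signal of the 7 members past the threshold (vertical axis) on each array, with wild-type arrays in blue and DNMTs-Tg arrays in red; horizontal marks are group means and bars the SD (n = 3). The groups do not overlap for any of the 7 genes, and Gstk1 spreads from 6.48 to 9.08 over the DNMTs-Tg arrays while Gstm5 stays between 9.29 and 9.47.

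Gstk1, the kappa transferase of mitochondria and peroxisomes, had log2 signals of 6.48, 8.06 and 9.08 in DNMTs-Tg replicates 1, 5 and 6 and of 11.15, 11.12 and 10.97 in wild-type replicates 1, 4 and 6. Every DNMTs-Tg heart was lower than every wild-type heart, and the DNMTs-Tg hearts spread widely while the wild-type hearts lay close together. The difference was -3.21 ± 0.57 (log2, SE, n = 3 per group), a 9.24-fold fall (adjusted p = 0.0272). It was -2.51 without DNMTs-Tg replicate 1 (adjusted p = 0.00522). The call ended without DNMTs-Tg replicate 5 or without any 1 wild-type array, where the adjusted p was 0.0976 to 0.113. Whether the hearts held less Gstk1 RNA per cell or fewer cells that express it cannot be told apart in bulk tissue, which holds for every gene here. The nearest measured genes beside it on chromosome 6 were Trpv6, at -0.06 ± 0.14 (SE), and Casp2, a caspase gene, at 0.06 ± 0.15 (adjusted p = 0.799 and 0.834).

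The theta class was split. Gstt2 had log2 signals of 5.38, 5.44 and 6.29 in DNMTs-Tg replicates 1, 5 and 6 and of 8.11, 7.18 and 7.75 in wild-type replicates 1, 4 and 6. It fell by 1.98 ± 0.32 on the log2 scale (SE, 3.95-fold, adjusted p = 0.0193), and the groups did not overlap although the wild-type hearts spread nearly as widely as the DNMTs-Tg hearts. The call ended without DNMTs-Tg replicate 5, wild-type replicate 1 or wild-type replicate 6 (adjusted p = 0.0815 to 0.0871). Its paralog Gstt1 overlapped between the groups, with 7.93 to 9.33 in DNMTs-Tg and 8.15 to 8.57 in wild-type hearts (difference 0.13, 95% interval -0.67 to 0.93). Gstt3 had 4.67 to 5.07 over all arrays and differed by -0.21 (adjusted p = 0.360). On chromosome 10 Gstt2 lies between Gstt4, another theta gene, at -0.20 ± 0.11, and Mif, a cytokine gene, which rose by 0.81 ± 0.14 (SE, adjusted p = 0.0220).

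The 7 mu class genes lie side by side on chromosome 3 and were all below 0, with differences from -1.67 to -0.09, and 3 of them fell. In chromosomal order they are Gstm5, Gstm7, Gstm6, Gstm3, Gstm2, Gstm1 and Gstm4, so the falls stood at the ends of the cluster. Gstm5 had log2 signals of 9.38, 9.29 and 9.47 in DNMTs-Tg replicates 1, 5 and 6 and of 11.09, 11.01 and 11.04 in wild-type replicates 1, 4 and 6. The hearts of each genotype lay close together, and the fall was 1.67 ± 0.09 (SE, 3.18-fold, adjusted p = 0.000628). Gstm7 had 7.14, 7.37 and 7.30 in DNMTs-Tg and 8.81, 8.75 and 8.67 in wild-type hearts, a fall of 1.48 ± 0.11 (2.78-fold, adjusted p = 0.00151). This was as even over the hearts as that of Gstm5, but the second probe set of Gstm7 lay at 0.25, so the fall rests on 1 of its 2 probe sets, and the mean of both gave -0.61 (adjusted p = 0.0431). Gstm4 had 5.92, 5.51 and 6.49 in DNMTs-Tg and 7.44, 7.45 and 7.37 in wild-type hearts, a fall of 1.45 ± 0.23 (2.73-fold, adjusted p = 0.0202). The Gstm4 call ended without DNMTs-Tg replicate 5 or any 1 wild-type array (adjusted p = 0.0574 to 0.0944).

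The 4 genes in the middle of the cluster did not pass. Gstm1, an abundant mu enzyme of many tissues, had 10.62, 10.18 and 9.76 in DNMTs-Tg and 11.13, 10.87 and 10.59 in wild-type hearts. The groups touched, since DNMTs-Tg replicate 1 lay just above wild-type replicate 6, and the difference of -0.67 ± 0.23 did not pass (adjusted p = 0.133). It passed without DNMTs-Tg replicate 1 (-0.89, adjusted p = 0.0367), and the mean of its 4 probe sets gave -0.43 (adjusted p = 0.171). Gstm2 differed by -0.09 (95% interval -0.72 to 0.55), Gstm3 by -0.22 and Gstm6 by -0.31, with adjusted p from 0.146 to 0.865. The mu genes are close paralogs. The probe sets that stand for Gstm1 and Gstm3 carry platform suffixes for probes shared with other transcripts, so part of their signal may come from relatives. Of the Gstm1 probe sets without such a suffix, the brighter lay lower without overlap (-0.69) and the dimmer overlapped (0.01). Next to the cluster, Ampd2, an AMP deaminase gene, lay at 0.65 ± 0.43 (adjusted p = 0.380).

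**Figure D2:**
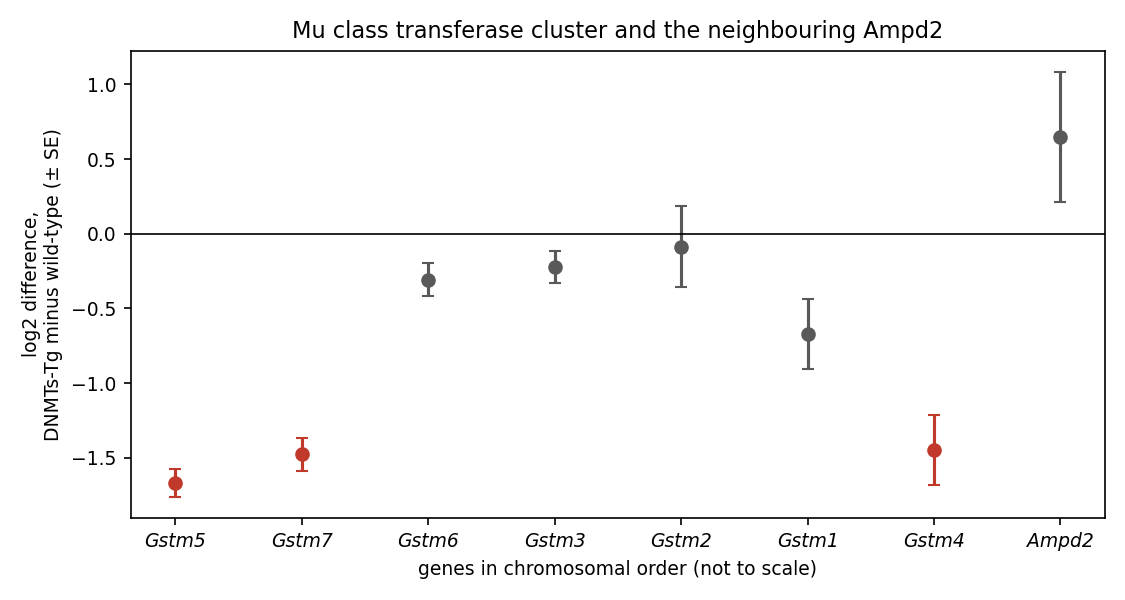
Log2 difference between DNMTs-Tg and wild-type hearts (vertical axis, bars ± SE, n = 3 per group) for the mu class genes in their order on chromosome 3 and for the neighbour Ampd2; red marks genes past the threshold. Gstm5, Gstm7 and Gstm4 lie between -1.67 and -1.45, and the genes between them lie between -0.67 and -0.09.

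Since the study asked which genes the added methyltransferases silence, the promoter windows of 5 genes that fell are shown with that of Gstm2, which lay in the same cluster as 3 of them and differed by -0.09. Each window runs from 250 bases before to 50 bases after the annotated start (RefSeq, GRCm38.p6), 5′ to 3′ on the strand of the gene, with CpG dinucleotides, the sites that DNA methyltransferases act on, in capitals.
Gstk1 promoter, chr6:42245685-42245984, plus strand: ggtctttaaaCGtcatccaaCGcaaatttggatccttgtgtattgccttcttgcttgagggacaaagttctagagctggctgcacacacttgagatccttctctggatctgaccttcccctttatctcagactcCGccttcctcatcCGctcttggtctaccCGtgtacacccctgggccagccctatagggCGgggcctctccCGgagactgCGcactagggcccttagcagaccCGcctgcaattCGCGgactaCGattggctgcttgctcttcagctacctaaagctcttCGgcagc
Gstm5 promoter, chr3:107895604-107895903, plus strand: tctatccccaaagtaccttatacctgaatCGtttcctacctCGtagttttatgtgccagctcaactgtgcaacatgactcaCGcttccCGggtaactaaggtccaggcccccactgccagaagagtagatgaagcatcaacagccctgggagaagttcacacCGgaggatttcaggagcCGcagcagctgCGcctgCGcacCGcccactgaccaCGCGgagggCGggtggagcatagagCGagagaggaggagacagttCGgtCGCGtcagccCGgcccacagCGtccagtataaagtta
Gstm7 promoter, chr3:107931768-107932067, minus strand: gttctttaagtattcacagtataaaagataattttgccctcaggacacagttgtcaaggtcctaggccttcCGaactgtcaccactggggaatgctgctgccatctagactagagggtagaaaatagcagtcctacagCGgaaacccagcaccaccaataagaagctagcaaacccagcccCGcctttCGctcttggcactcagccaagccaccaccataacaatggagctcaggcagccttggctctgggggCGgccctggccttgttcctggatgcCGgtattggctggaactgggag
Gstm4 promoter, chr3:108044810-108045109, minus strand: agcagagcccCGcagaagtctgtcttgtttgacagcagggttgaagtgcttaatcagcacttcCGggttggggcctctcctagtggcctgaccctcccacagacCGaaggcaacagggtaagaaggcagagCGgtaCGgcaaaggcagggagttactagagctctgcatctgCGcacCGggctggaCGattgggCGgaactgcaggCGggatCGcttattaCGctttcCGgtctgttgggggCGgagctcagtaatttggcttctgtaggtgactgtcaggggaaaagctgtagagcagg
Gstp1 promoter, chr19:4037863-4038162, minus strand: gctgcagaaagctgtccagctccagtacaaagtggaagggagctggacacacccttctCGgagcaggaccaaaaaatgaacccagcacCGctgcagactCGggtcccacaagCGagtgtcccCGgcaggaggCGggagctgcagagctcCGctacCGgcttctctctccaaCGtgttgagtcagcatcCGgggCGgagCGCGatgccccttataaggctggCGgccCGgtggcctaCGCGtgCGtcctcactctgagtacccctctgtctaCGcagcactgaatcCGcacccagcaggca
Gstm2 promoter, chr3:107986371-107986670, minus strand: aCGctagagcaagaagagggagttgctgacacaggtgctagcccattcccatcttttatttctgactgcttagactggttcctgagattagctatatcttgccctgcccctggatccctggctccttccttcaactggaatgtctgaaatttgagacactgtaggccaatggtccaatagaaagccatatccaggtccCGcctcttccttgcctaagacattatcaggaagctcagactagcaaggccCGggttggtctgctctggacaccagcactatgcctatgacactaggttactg

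The Gstk1 window held 13 CpG, that of Gstm5 18, Gstm7 6, Gstm4 14, Gstp1 20 and Gstm2 3. Gstm1, whose call was missed, held 14, as many as Gstm4. Among windows not shown, that of Txn1, which fell, held 26, and those of Gstm3 and Gstm6, which did not pass, held 5 and 4. Windows were matched for 49 of the 58 members, with a median of 13 CpG. Over the 6 members with a window that fell the median was 16, and over the 40 that were tested and not called it was 13. For comparison, it was 20 over the windows of all genes tested and 18 over those of all genes that fell. A ratio of observed to expected CpG above 0.6 was found in 3 of those 6 (50%), in 19 of those 40 (47.5%) and in 66.3% of the windows of all genes tested. Genes that fell and genes that did not were thus found on both sides of this ratio. The sequences say nothing of whether these sites were methylated in the hearts.

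Gstp1, the pi class enzyme, had log2 signals of 12.39, 12.41 and 12.29 in wild-type replicates 1, 4 and 6. In DNMTs-Tg replicates 1, 5 and 6 it had 10.90, 11.31 and 11.82. The order of the DNMTs-Tg hearts was that seen for Gstk1 and for the whole arrays, and the fall was 1.02 ± 0.21 (SE, 2.03-fold, adjusted p = 0.0425). The call ended without DNMTs-Tg replicate 5 or any 1 wild-type array (adjusted p = 0.129 to 0.161). Gsto1, the omega enzyme, differed by 0.15 (95% interval -0.14 to 0.45). Gstz1, which isomerises maleylacetoacetate in tyrosine breakdown, lay lower without overlap but did not pass (-0.47 ± 0.13, adjusted p = 0.0879), and Gstcd differed by 0.26 (adjusted p = 0.225). Gstp2 is a near-identical neighbour of Gstp1, so the 2 genes may share signal in the probe set of Gstp1. Hepatocytes are rich in transferases. Of 8 hepatocyte markers 3 were tested, and 4 of the 7 with a probe set lay above the 40th percentile on no array. Cyp2e1 fell (-1.09, limma, adjusted p = 0.00751). Ttr went the other way without overlap but did not pass (0.53, adjusted p = 0.0635), and Apoa1 overlapped (-0.07). The mean of these 3 was -0.29, -0.17 and -0.16 in DNMTs-Tg replicates 1, 5 and 6, while wild-type hearts lay from -0.03 to 0.03. This mean thus rests on Cyp2e1, and its part in the transferase values was not tested.

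In the alpha class 0 of 3 genes passed (limma), and 1 had an unadjusted p under 0.05. Gsta4, which conjugates the lipid aldehyde 4-hydroxynonenal, had 9.66, 9.85 and 10.35 in DNMTs-Tg replicates 1, 5 and 6 and 10.85, 10.73 and 10.67 in wild-type replicates 1, 4 and 6. The groups were apart, and the difference of -0.80 ± 0.18 narrowly missed the threshold (adjusted p = 0.0520). It passed with a common median of the arrays (adjusted p = 0.0486), without DNMTs-Tg replicate 6 (adjusted p = 0.00686) and with a filter at the 60th percentile (adjusted p = 0.0492). Gsta2, described because of 1 array, reached 9.65 in DNMTs-Tg replicate 1 and lay between 4.00 and 5.89 on the 5 other arrays. Its difference of 1.91 (adjusted p = 0.334) was 0.49 without that array. Gsta3 had 6.63 to 7.06 in DNMTs-Tg and 5.83 to 6.84 in wild-type hearts, which overlapped (difference 0.44, adjusted p = 0.323).

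Of the 3 microsomal enzymes none passed in limma, and 1 had an unadjusted p under 0.05. Mgst3, which also acts as a peroxidase on lipid hydroperoxides, was bright, at 12.83 to 12.86 in wild-type hearts, and had 11.73, 12.60 and 12.47 in DNMTs-Tg replicates 1, 5 and 6. All DNMTs-Tg hearts lay lower, replicate 1 by the most, and the difference was -0.59 ± 0.22 (adjusted p = 0.147). Without replicate 1 it was smaller, at -0.32, and passed (adjusted p = 0.0335). The mean of its 2 probe sets gave -0.37 (adjusted p = 0.293). Mgst1 overlapped, at 10.57 to 11.13 in DNMTs-Tg and 10.37 to 11.38 in wild-type hearts. Mgst2 had 4.72 to 5.09 over all arrays and differed by -0.21 (adjusted p = 0.275).

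**Figure D3:**
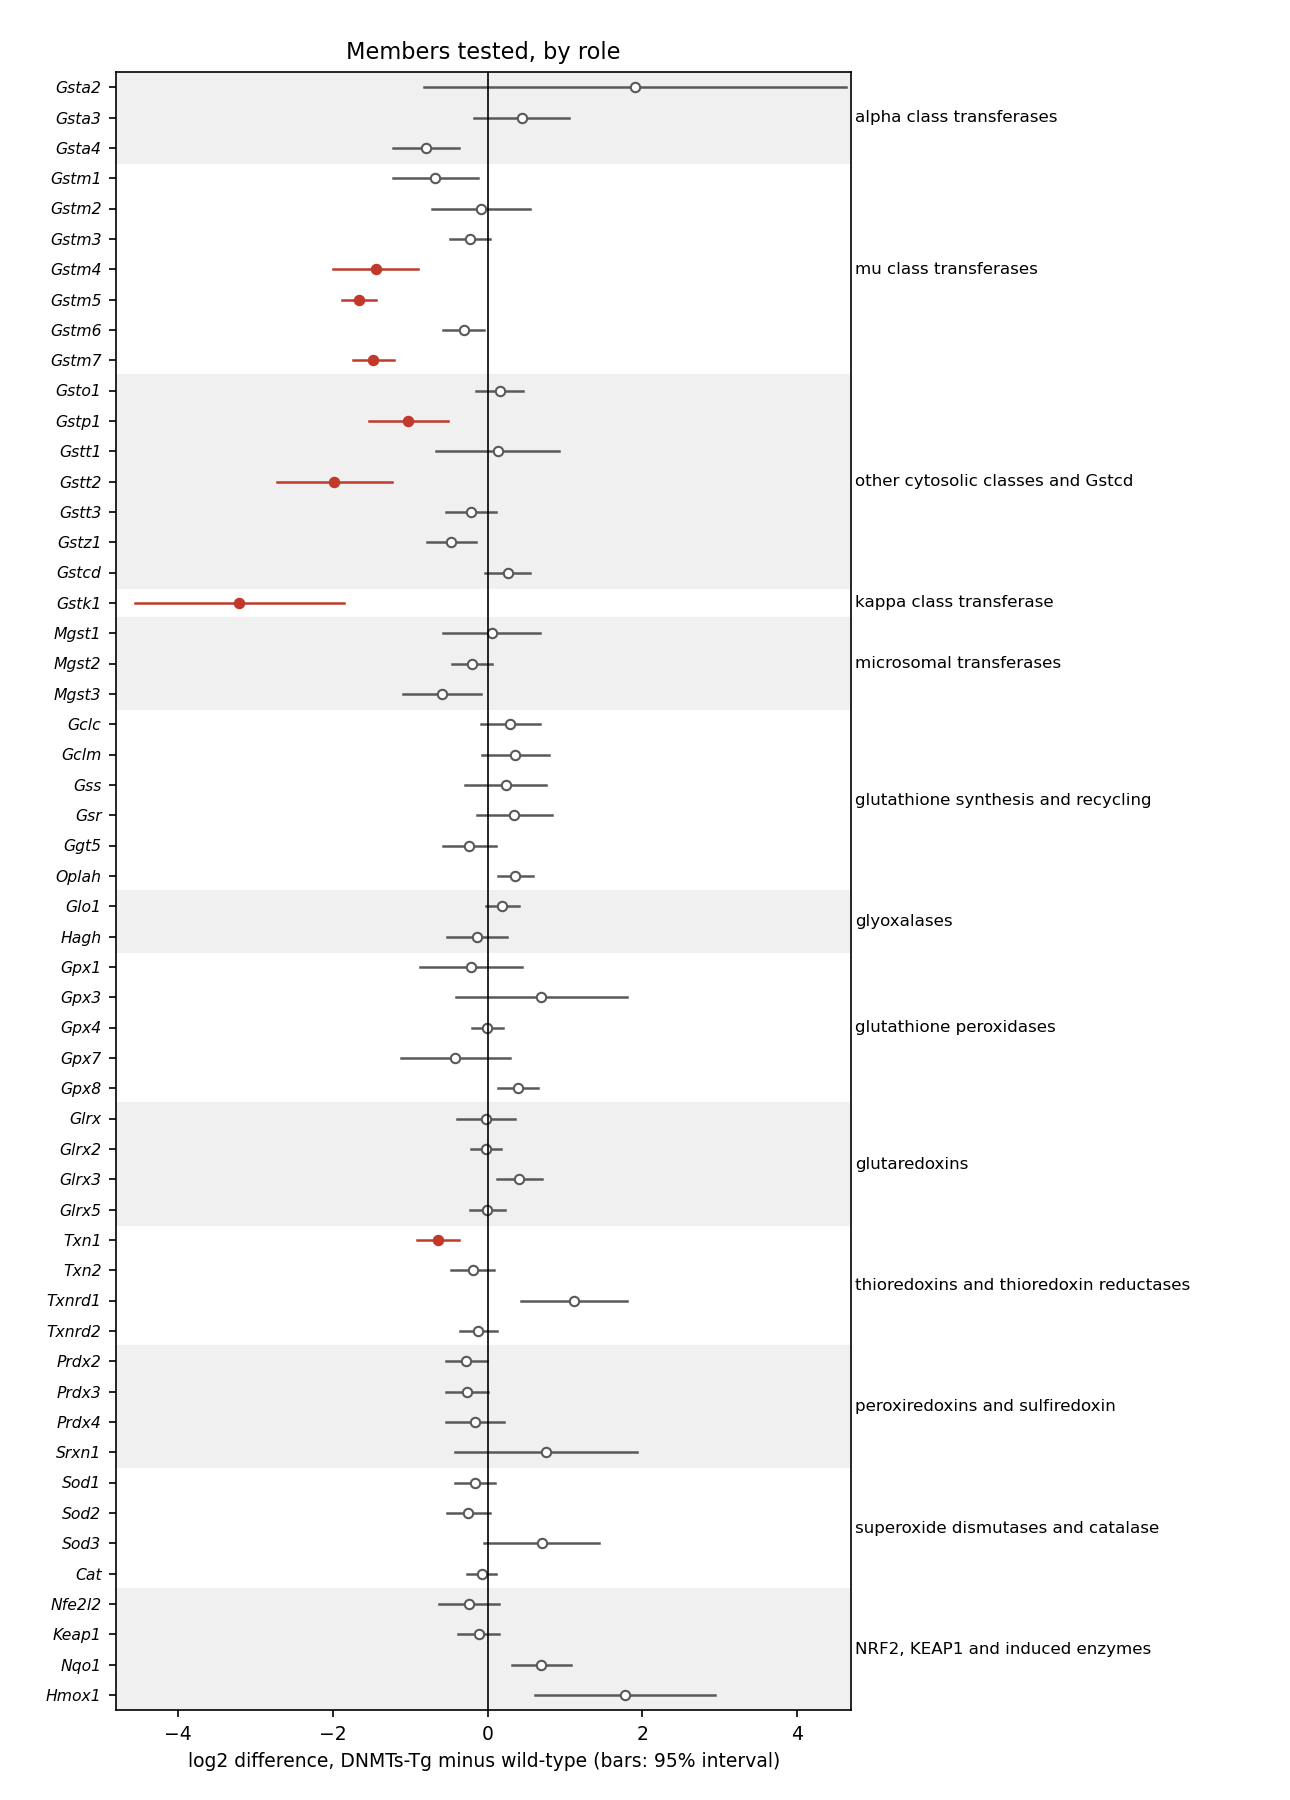
Log2 difference between DNMTs-Tg and wild-type hearts (horizontal axis) for the 54 members tested, ordered by role, with 95% intervals from limma (n = 3 per group); filled red points passed the threshold. The red points are 6 transferases, from -3.21 for Gstk1 to -1.02 for Gstp1, and Txn1 at -0.64.

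The enzymes that make and recycle glutathione did not pass (0 of 6 tested in limma, 1 at an unadjusted p under 0.05), and 5 of the 6 differences lay above 0, with a median of 0.32. Gclc and Gclm encode the catalytic and regulatory subunits of the rate-limiting ligase of glutathione synthesis. Gclc had 8.79, 8.54 and 8.19 in DNMTs-Tg replicates 1, 5 and 6 and 8.21, 8.21 and 8.22 in wild-type hearts. Replicates 1 and 5 were higher and replicate 6 was at the wild-type level, so the groups overlapped (0.30 ± 0.16, adjusted p = 0.286). Gclm overlapped too, with 9.40 to 9.96 against 9.11 to 9.49 (0.36 ± 0.18, adjusted p = 0.258). Gss, the synthetase of the last step, differed by 0.23 (adjusted p = 0.540). Gsr, glutathione reductase, had 8.40, 7.85 and 7.63 in DNMTs-Tg replicates 1, 5 and 6 and 7.62, 7.75 and 7.48 in wild-type replicates 1, 4 and 6 (0.34 ± 0.20, adjusted p = 0.326). Replicate 1 lay well above the wild-type values by this probe set. The second lay at -0.00, and the mean of both gave 0.17 (adjusted p = 0.589).

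Oplah, which returns 5-oxoproline to glutamate, was even within each genotype, at 8.88, 8.93 and 8.95 in DNMTs-Tg replicates 1, 5 and 6 and 8.63, 8.49 and 8.57 in wild-type replicates 1, 4 and 6. The groups were apart, but the difference of 0.36 ± 0.10 did not pass (adjusted p = 0.0780). Ggt5, which cleaves extracellular glutathione, differed by -0.24 (adjusted p = 0.338). The glyoxalases clear methylglyoxal with glutathione. Glo1 had 10.31, 10.20 and 10.33 in DNMTs-Tg replicates 1, 5 and 6 and 10.09, 10.06 and 10.12 in wild-type hearts (0.19 ± 0.09, adjusted p = 0.229). Hagh had 10.01 to 10.44 and 10.21 to 10.67 (-0.14 ± 0.17, adjusted p = 0.623), and the 4 probe sets of Glo1 ranged from -0.56 to 0.19 and so differed in sign.

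In the group of NRF2, its inhibitor and the induced enzymes Nqo1 and Hmox1, 0 of 4 genes passed (limma, 2 at an unadjusted p under 0.05). Regulators and enzymes were not compared in a test. Nfe2l2 had 10.72, 10.51 and 10.15 in DNMTs-Tg replicates 1, 5 and 6 and 10.63, 10.89 and 10.59 in wild-type replicates 1, 4 and 6 (-0.24 ± 0.17, adjusted p = 0.395). Its second probe set lay at 0.50. Keap1 had 8.45 to 8.71 in DNMTs-Tg and 8.63 to 8.74 in wild-type hearts (-0.11, 95% interval -0.38 to 0.15). RNA of both regulators thus overlapped between the genotypes.

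Hmox1, the heme oxygenase, had 9.30, 7.68 and 7.18 in DNMTs-Tg replicates 1, 5 and 6 and 6.42, 6.11 and 6.29 in wild-type replicates 1, 4 and 6. All DNMTs-Tg hearts were higher, replicate 1 by the most, and the difference was 1.78 ± 0.49 (3.43-fold, adjusted p = 0.0828). Txnrd1, the cytosolic thioredoxin reductase, had 10.91, 10.18 and 9.63 against 9.12, 9.13 and 9.14, a difference of 1.11 ± 0.29 (2.16-fold, adjusted p = 0.0740). Here the wild-type hearts were nearly equal, and the DNMTs-Tg hearts took the same order as for Hmox1 and for the whole arrays. The second kept probe set of Txnrd1 overlapped between the groups and lay at 0.21, and the mean of both gave 0.66 (adjusted p = 0.152). Without DNMTs-Tg replicate 1 both genes passed as higher, with adjusted p = 0.0155 for Hmox1 and 0.0365 for Txnrd1 and differences of 1.16 and 0.78. They also passed without DNMTs-Tg replicate 6 (adjusted p = 0.0304 and 0.0147). Without replicate 5 or any 1 wild-type array they did not pass. Macrophages are a known source of Hmox1 RNA, and the macrophage marker mean was 1.41, -0.10 and -0.02 in DNMTs-Tg replicates 1, 5 and 6. Its part in the Hmox1 values was not tested.

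Nqo1, a quinone reductase, had 9.93, 9.54 and 9.50 in DNMTs-Tg replicates 1, 5 and 6 and 9.17, 8.96 and 8.76 in wild-type replicates 1, 4 and 6, without overlap (0.69 ± 0.16, 1.62-fold, adjusted p = 0.0567), and it passed as higher without DNMTs-Tg replicate 6 (adjusted p = 0.0423). Srxn1, the sulfiredoxin that restores overoxidised peroxiredoxins, had 9.22, 7.85 and 6.98 against 7.25, 7.30 and 7.24. Replicates 1 and 5 lay above and replicate 6 below the wild-type hearts, and the difference of 0.75 ± 0.50 (adjusted p = 0.374) was 0.15 without replicate 1 (adjusted p = 0.734). The 4 kept probe sets of Srxn1 all lay above 0, from 0.10 to 0.85. The core of the antioxidant response element bound by NRF2, searched as TGACNNNGC on both strands, was found in 8 of the 49 member windows (16.3%), in 14.6% of the windows of genes tested and in 12.4% of all 27025 windows of the same length. The 8 were those of Gsta3, Gstm5, Mgst1, Gclm, Prdx1, Srxn1, Sod1 and Nfe2l2. They include Gstm5, which fell, and Gclm and Srxn1, which did not pass. Hmox1, Gclc and Gsr had no matched window and were not searched, and bases outside the windows were not searched for any gene.

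**Figure D4:**
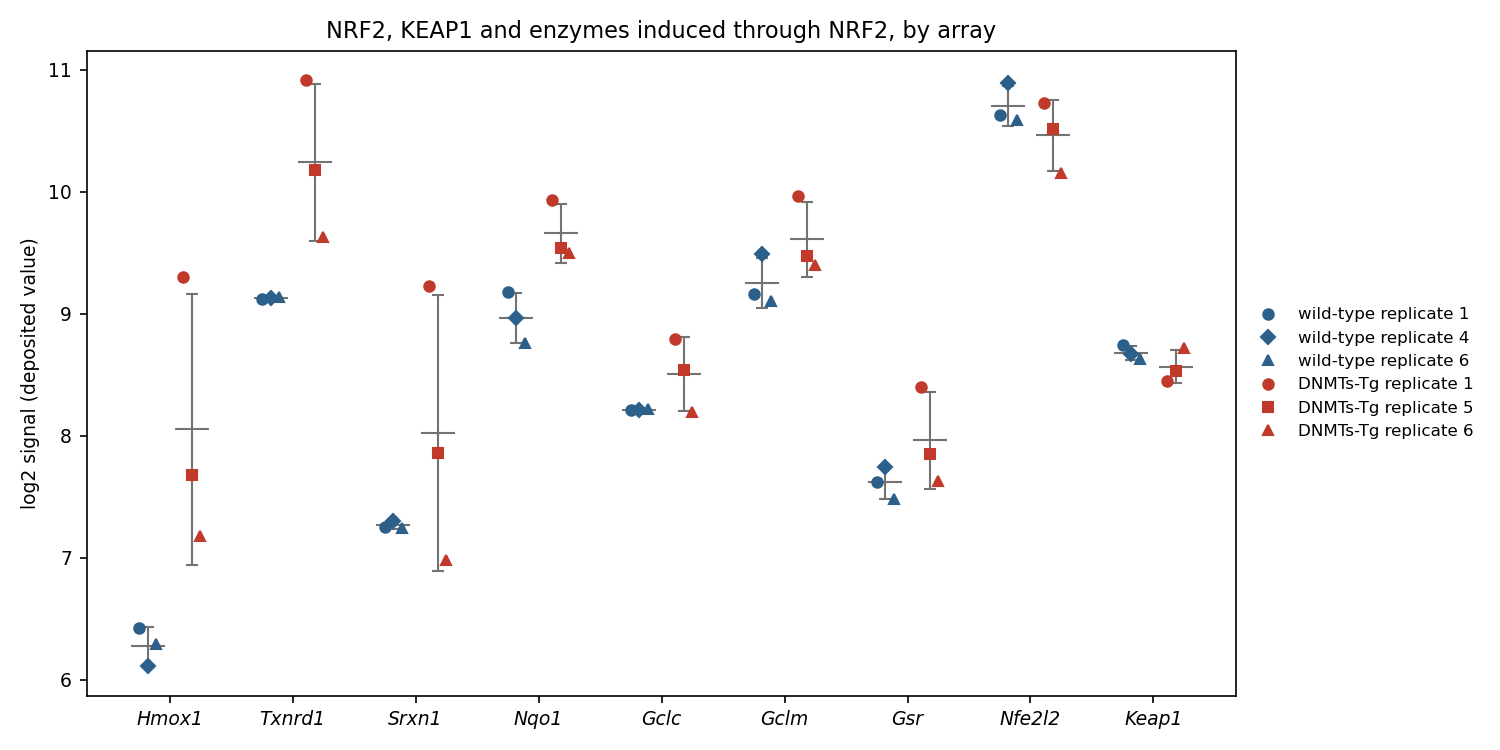
Log2 signal (vertical axis) of Nfe2l2, Keap1 and 7 genes known to be induced through NRF2 on each array, with wild-type arrays in blue and DNMTs-Tg arrays in red; horizontal marks are group means and bars the SD (n = 3). Hmox1, Txnrd1 and Nqo1 lie higher in every DNMTs-Tg heart, with replicate 1 at the top of each. By the probe sets shown, Srxn1, Gclc, Gclm, Gsr, Nfe2l2 and Keap1 overlap.

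In the thioredoxin system 1 of 4 genes passed. Txn1, the cytosolic thioredoxin, had 10.97, 10.62 and 10.78 in DNMTs-Tg replicates 1, 5 and 6 and 11.41, 11.37 and 11.52 in wild-type replicates 1, 4 and 6, a fall of 0.64 ± 0.11 (SE, 1.56-fold, adjusted p = 0.0265). The call ended with the mean of its 2 probe sets (-0.42, adjusted p = 0.0875) and without DNMTs-Tg replicate 5 or any 1 wild-type array (adjusted p = 0.0899 to 0.116). The mitochondrial pair, Txn2 and Txnrd2, differed by -0.19 (95% interval -0.47 to 0.08) and -0.12 (-0.36 to 0.12). Of the glutaredoxins, which reduce glutathionylated proteins or carry iron-sulfur clusters, Glrx, Glrx2 and Glrx5 differed by -0.02, -0.02 and -0.01, with 95% intervals of -0.39 to 0.35, -0.22 to 0.18 and -0.23 to 0.22. Glrx3, by its 1 probe set under this symbol alone, had 5.35, 5.39 and 5.36 against 5.18, 4.84 and 4.86, a difference of 0.41 ± 0.12 (adjusted p = 0.103).

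The peroxidases did not pass (0 of 5 glutathione peroxidases and 0 of 4 peroxiredoxin and sulfiredoxin genes in limma, with 1 and 2 at an unadjusted p under 0.05). Gpx1, the abundant cytosolic selenoenzyme, had 11.66, 10.44 and 11.07 in DNMTs-Tg replicates 1, 5 and 6 and 11.25, 11.16 and 11.40 in wild-type replicates 1, 4 and 6 (-0.21, 95% interval -0.88 to 0.45). The DNMTs-Tg hearts lay on both sides of the wild-type range. Red cells are rich in Gpx1. The mean of the erythroid genes Alas2 and Slc4a1 was 0.54, -1.19 and 1.67 (log2, relative to wild-type) in the same DNMTs-Tg hearts. It was 0.62, -0.30 and -0.32 in wild-type replicates 1, 4 and 6, so DNMTs-Tg replicate 1 lay within the wild-type range. Of 10 erythroid genes listed only these 2 were tested. Of the 5 with a probe set, 3 lay above the percentile of the filter on no array. The part of this mean in the Gpx1 values was not tested. Gpx3, the secreted plasma enzyme, had 12.30, 10.55 and 10.37 against 10.46, 10.42 and 10.25, so that replicate 1 alone stood out, and the difference of 0.69 was 0.08 without it. Gpx8, an enzyme of the endoplasmic reticulum, had 9.28, 9.08 and 9.26 against 8.73, 8.89 and 8.83, apart but not past the threshold (0.39 ± 0.11, adjusted p = 0.0818). Its relative Gpx7, described because it passed once an array was left out, had 8.19, 7.11 and 7.06 against 7.77, 7.80 and 8.05 (-0.42, adjusted p = 0.409), and without DNMTs-Tg replicate 1, which lay above all wild-type hearts, it passed as lower (-0.79, adjusted p = 0.0170). Gpx4, which reduces lipid hydroperoxides in membranes, had 12.98 to 13.12 in DNMTs-Tg and 13.02 to 13.17 in wild-type hearts (interval -0.20 to 0.19).

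The peroxiredoxins Prdx2, of the cytosol, and Prdx3, of mitochondria, lay lower without overlap by small amounts in their brightest probe sets. Prdx2 had 11.91, 12.12 and 12.29 in DNMTs-Tg replicates 1, 5 and 6 against 12.34, 12.42 and 12.38 (-0.28 ± 0.11, adjusted p = 0.178), but its second probe set overlapped and lay at 0.07, and the mean of both gave -0.10 (adjusted p = 0.525). Prdx3 had 11.77, 12.10 and 12.12 against 12.25, 12.23 and 12.32 (-0.27 ± 0.11, adjusted p = 0.191). Prdx4, of the endoplasmic reticulum, overlapped and differed by -0.16 (adjusted p = 0.553).

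Superoxide dismutases and catalase did not pass either (0 of 4 in limma, 0 at an unadjusted p under 0.05). Sod2, the manganese enzyme of mitochondria, had 12.62, 12.96 and 13.04 in DNMTs-Tg replicates 1, 5 and 6 and 13.10, 13.09 and 13.17 in wild-type replicates 1, 4 and 6 (-0.25 ± 0.12, adjusted p = 0.238). All 4 of its probe sets lay lower without overlap, from -0.73 to -0.25, and their mean gave -0.50 (adjusted p = 0.123). Tested singly without a filter, they had unadjusted p of 0.0042 to 0.069 (limma), and none passed after adjustment. Sod3, the extracellular enzyme, had 8.40, 7.35 and 7.11 against 6.99, 6.82 and 6.96, higher in every DNMTs-Tg heart by this probe set (0.70 ± 0.31, adjusted p = 0.211). Its second probe set overlapped and lay at 0.18, and the mean of both gave 0.44 (adjusted p = 0.328). Fibroblasts are among the cells that secrete Sod3, and the fibroblast marker mean was 1.15, 0.22 and 0.15 in these hearts. Of the 10 markers behind it 3 lay below 0 and 0 passed in limma. The part of this mean in the Sod3 values was not tested. Cat had 11.75, 11.85 and 11.86 against 11.93, 11.90 and 11.87, and its 2 probe sets differed in sign, at -0.08 and 0.14. Sod1 differed by -0.17 (95% interval -0.42 to 0.09).

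Genes around these enzymes were taken from lists of related pathways, beside which 5.39% of all genes tested passed. Of 17 tested genes for NADPH supply, cystine uptake and other NRF2 targets, 1 fell and 0 rose (limma, 5 at an unadjusted p under 0.05), and the fall was Pir, an iron-binding nuclear protein gene (-1.33 ± 0.21, adjusted p = 0.0202). Of 10 partners and repressors of NRF2, 1 rose, Mafk, a small MAF partner that binds DNA with NRF2 (1.12 ± 0.24, adjusted p = 0.0473). It had 10.20, 9.77 and 9.17 in DNMTs-Tg replicates 1, 5 and 6, above the wild-type values of 8.52 to 8.71. This was the order of Hmox1 and Txnrd1 and of the whole arrays. Among 17 other thiol and methionine repair genes 1 fell, Msra, a methionine sulfoxide reductase gene (-0.51 ± 0.11, adjusted p = 0.0473). Of 14 selenoprotein genes 2 rose, Secisbp2, which encodes the protein that reads selenocysteine insertion elements (0.81 ± 0.16, adjusted p = 0.0362), and Selenow (0.57 ± 0.12, adjusted p = 0.0428). Glutathione breakdown and export had 0 of 11 past the threshold (4 at an unadjusted p under 0.05) and oxidant-producing enzymes 0 of 10 (2 at an unadjusted p under 0.05). The genes with the smallest p there were Abcc3, an export pump (1.30, adjusted p = 0.0968), and Maob, a monoamine oxidase (-1.36, adjusted p = 0.0683).

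The peroxisome list, which holds the organelle genes around Gstk1 and Cat, had 23 of 29 members below 0, a median of -0.31, and 1 fall, Hacl1, a lyase of branched and 2-hydroxy fatty acid breakdown (-0.71 ± 0.11, adjusted p = 0.0192), with 13 members at an unadjusted p under 0.05. Averaged over the list and set against the wild-type mean, DNMTs-Tg replicate 1 lay at -0.57, replicate 5 at -0.25 and replicate 6 at -0.13. Single wild-type hearts lay from -0.10 to 0.08. Gstk1 and Gstp1 took this order too, but so did the whole arrays, so the order does not tie these genes to the list.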

How the data were processed

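The values deposited by the authors are log2 signals of probe sets that they had put on a common scale, as the near-equal array medians show. Their software and methods of background correction and normalization: not given in the sources used here. Symbols came from the platform annotation, updated by gene ID. Probe sets with several symbols (10 held a member) and control probe sets were left out, and the brightest remaining probe set (mean of the 6 arrays) stood for a gene. The genotypes were compared in R 4.3.3 with limma 3.58.1 (lmFit, eBayes with trend), two-sided, with no covariate and Benjamini-Hochberg adjustment over 13634 genes at 0.05. The code was tested on simulated data. The labels name separate mice, 1 array each. Members and gene lists were chosen with earlier results of these data known. Named genes were the members past the threshold, the 2 with the smallest p of each role and a set list of enzymes. Each list of related pathways gave up to 4 genes that passed, or its gene of smallest p if none did. Cell type markers were not named by this rule, and not every marker list is described. Gsta2, Gpx7, the remaining members given by ranges, and the chromosomal neighbours were added after their values were seen. Scaling, filter, probe set choice, variance model, array weights, a replicate block and leaving out arrays were tried as alternatives.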

Additional observations from a re-analysis of the deposited data

How the results depend on the processing

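Between 6 and 8 members passed, with 0 rises, under both other scalings, both other filters, both other probe set choices and both other variance models, and all 7 called members kept their direction under every alternative run. Array weights, whose estimate did not converge, gave 4822 genes (2328 rose, 2494 fell) and 27 members (8 rose, 19 fell). With the label number as a replicate block, 1 gene rose, 0 genes fell and 0 members passed in limma. Only numbers 1 and 6 occur in both genotypes, and deviations of same-numbered hearts correlated at -0.0543 and -0.0802, so the hearts share only a number. Leaving out each array in turn gave 123 to 1604 genes (44 to 815 rose, 79 to 789 fell), 2 to 12 members (0 to 3 rose, 2 to 10 fell) and 2 to 12 member probe sets against 7 with all arrays. Without DNMTs-Tg replicate 1 and wild-type replicate 4 together, chosen after seeing the data, 489 genes passed (179 rose, 310 fell), and so did 7 members, of which 1 rose, Hmox1, and 5 were among those called with all arrays. The causes were not tested. Over the named members and all alternatives, 514 differences kept direction and side of the threshold, 24 became calls, 29 lost the call and 9 changed sign, none of them of a called gene. With the mean of probe sets Glo1 turned to -0.17, Glrx2 to 0.024, Cat to 0.032 and Nfe2l2 to 0.13. With array weights Hagh turned to 0.072 and Glrx2 to 0.0024. Gpx1 turned to 0.040 with the replicate block and to 0.094 without DNMTs-Tg replicate 5, and Glrx2 turned to 0.016 without DNMTs-Tg replicate 1 and wild-type replicate 4 together. Over all fits with arrays left out, Gpx1 ranged from -0.57 to 0.094 and Glrx2 from -0.033 to 0.016. With 3 arrays per genotype, a difference that missed the threshold is not shown to be absent.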

Other observations

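Probe sets that name a member together with another gene were outside the choice of members. The 5 shared by Prdx1, a cytosolic peroxiredoxin, and Gm21399 had differences from -0.39 to -0.07 and did not pass (adjusted p = 0.0926 to 0.794). The 4 shared by Glrx3 and Gm12669 had differences of 0.03, 0.23, 0.33 and 0.83 and did not pass (adjusted p = 0.0645 to 0.885), and the brightest of them, at 10.12 to 10.26 on all arrays, was the one at 0.03. The probe set shared by Gsta1, Gsta2 and Gm3776 had log2 signals of 10.03, 7.22 and 6.12 in DNMTs-Tg replicates 1, 5 and 6 and of 6.52, 6.59 and 5.53 in wild-type replicates 1, 4 and 6, so that replicate 1 stood apart there as it did for Gsta2 itself.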
